A study of Mus musculus with 6 samples.

Results

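The genes examined were 10 transcription factors that mark and shape the endothelium, taken as the rows of the deposited read count table with the symbols *Erg*, *Fli1*, *Ets1*, *Ets2*, *Sox7*, *Sox17*, *Sox18*, *Klf2*, *Klf4* and *Gata2*. All 10 had a row among the 24421 genes of the table. The counts come from cultured endothelial cells of the stria vascularis, the vascularized epithelium of the cochlear lateral wall, with 3 libraries for each genotype, *Nhe6*-knockout and wildtype. By the methods, the tissue taken for culture was the stria vascularis together with the spiral ligament. *Nhe6* encodes an endosomal sodium/proton exchanger. The knockout carries a targeted disruption of the gene, and both genotypes were untreated and taken on postnatal days 10 to 12. The labels name C57BL/6N as the background, whereas the methods describe backcrossing to C57bl6/j. Each culture pooled at least 6 mice, and the cells were purified by fluorescence-activated sorting and grown again before use. The labels number the libraries but do not name the cultures, so p-values measure the spread between these libraries. The comparison asked whether genes related to the endothelial barrier differed between the genotypes.

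Transcription factors of the ETS family bind a short GGAA core and act together at most endothelial enhancers and promoters, and ERG and FLI1 maintain endothelial identity. The SoxF group (SOX7, SOX17 and SOX18) acts in arterial and lymphatic specification, and GATA2 acts with ETS factors in endothelial and blood-forming cells. KLF2 and KLF4 are induced by laminar blood flow through the kinase ERK5 and MEF2 factors, and they drive anticoagulant and anti-inflammatory genes.

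In these cultures *Klf4*, *Ets1*, *Ets2*, *Fli1*, *Gata2* and *Klf2* were expressed, *Erg* had at most 15 reads in a library, *Sox7* and *Sox18* had at most 6, and *Sox17* had none. None of the 6 expressed genes passed the test between the genotypes. *Ets1* was the single one of these 6 whose counts did not overlap between the genotypes, with more reads in each *Nhe6*-knockout library. Of all genes tested, 19.9% had no overlap. *Klf4* changed direction when 1 wildtype library was left out.

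The promoters of *Klf2* and *Klf4* are shown because both genes share the ERK5 and MEF2 route described above and both had their highest count in the same library. Sequences are from RefSeq, which gave 8 promoters for 5 of the 10 genes (*Erg*, *Ets2*, *Klf2*, *Klf4* and *Gata2*), and cover 200 bases that end 51 bases before the annotated start, 5′ to 3′ on the strand of the gene. The *Klf2* stretch is chr8:72318812-72319011 (plus strand, GRCm38.p6) with the match to the MEF2 consensus in capitals. The *Klf4* stretch is chr4:55532526-55532725 (minus strand) with matches to a GC box, CCGCCC on either strand, in capitals.
*Klf2*: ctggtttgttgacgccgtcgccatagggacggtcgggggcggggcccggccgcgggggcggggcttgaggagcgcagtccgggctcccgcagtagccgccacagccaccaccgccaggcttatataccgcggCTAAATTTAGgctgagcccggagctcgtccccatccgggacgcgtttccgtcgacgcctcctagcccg
*Klf4*: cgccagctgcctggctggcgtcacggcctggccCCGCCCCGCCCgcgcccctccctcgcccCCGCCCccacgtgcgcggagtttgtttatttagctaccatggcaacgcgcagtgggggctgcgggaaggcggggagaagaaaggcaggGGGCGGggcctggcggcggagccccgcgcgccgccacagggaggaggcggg
The MEF2 match of *Klf2* begins at position -118 from the start, and a MEF2 match is present in 3.19% of all RefSeq mouse promoters of 300 bases. *Klf4* had no MEF2 match and 4 GC boxes, the first pair overlapping by 1 base, and *Klf2* had 2 GC boxes. A GC box is present in 35.7% of all such promoters. Among the other promoters, 1 of the 3 of *Erg* held a MEF2 match, at position -16. These matches describe letters in the window and not binding.

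The table held 25587097 to 29126232 gene counts per library, and 13479 genes passed a filter on low counts. Normalized counts below are read counts adjusted with TMM factors for library size, given for replicates 1, 2 and 3 in turn. Log2 fold changes are *Nhe6*-knockout over wildtype, tested with edgeR's quasi-likelihood test. Wildtype replicate 2 stood apart, at 94.8 on the first principal component against -24.9 to -6.12 for the other libraries. *Nhe6*-knockout replicates 1 and 2 were far closer to each other than any other pair of one genotype, with a chi-square per degree of freedom of 4.91 against at least 90.1. They still differed by more than sampling noise and were counted as 2 libraries.

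The label of endothelial cells was checked against 12 markers. *Cldn5* and *Robo4* had no read in any library, *Tie1* had at most 2 and *Pecam1* at most 8, whereas *Emcn* had 397 reads in wildtype replicate 2 and 10458 to 18730 in the others. The summed normalized counts of fibroblast markers (10 of 10 tested) were 307626 to 464428 per library. Those of endothelial markers (6 of 12 tested) were 7062 to 19665, lowest in wildtype replicate 2. *Emcn* alone held 9896 to 18385 of the endothelial sum in the other libraries. In wildtype replicate 2 *Emcn* held 409 and *Egfl7* 139, the lowest count of each. *Cdh5* (5198), *Tek* (1006), *Esam* (237) and *Kdr* (70.1) were at their highest in that library. The highest fibroblast sum was that of wildtype replicate 2, where *Col1a1* had 27174 normalized counts against 207 to 1227 in the other libraries. *Col1a2* (186223), *Fn1* (102496), *Vim* (69024) and *Thy1* (12411) were also highest in that library. *Col3a1*, *Dcn*, *Lum* and *Pdgfra* were lowest there. Mural markers (9 of 10 tested) summed to 33885 in wildtype replicate 2 against 15569 to 21532 in the others, through *Acta2* (16267), *Tagln* (5337) and *Cspg4* (4407), whereas *Pdgfrb* (7790), *Rgs5* (29.9), *Des* (4.13) and *Abcc9* (3.09) were at their lowest in that library. Lymphatic markers (3 of 4 tested) summed to 7685 there against 2183 to 4135, of which *Pdpn* alone held 7624. Macrophage markers (8 of 10 tested) summed to 140.3 there against 1269 to 3053. Melanocyte markers (4 of 8 tested) summed to 288 to 1171 and epithelial markers (7 of 9 tested) to 71.9 to 1202. *Cdh5* was the one marker in these 7 lists that passed the test between the genotypes. In bulk RNA, fewer cells of a type and less RNA per cell cannot be told apart, and the part of cell composition in the results below was not tested.

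Levels of different genes were compared as RPKM, the reads per kb of exon scaled to the gene counts of the library. *Klf4* had the highest mean level, an RPKM of 22.8, and lay above the next gene in all 6 libraries. *Ets1* (6.68) and *Ets2* (5.92) followed, and neither was the higher one throughout, since *Ets1* exceeded *Ets2* in 3 of 6 libraries. *Fli1* had a mean level of 4.37 and lay below *Ets2* in 5 of 6 libraries. *Gata2* (2.72) and *Klf2* (2.71) could not be ordered, with *Gata2* above *Klf2* in 2 of 6 libraries. *Erg* had a mean level of 0.092, below *Klf2* in every library, and *Sox18* (0.0267), *Sox7* (0.0231) and *Sox17* (0) came last. Of the 12978 tested genes with a single annotated position, 83.9% had a lower mean level than *Klf4*, 53.8% a lower one than *Ets1* and 32.0% a lower one than *Klf2*. *Erg*, which did not itself pass the filter on low counts, lay above 1.45% of these genes.

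**Figure D1:**
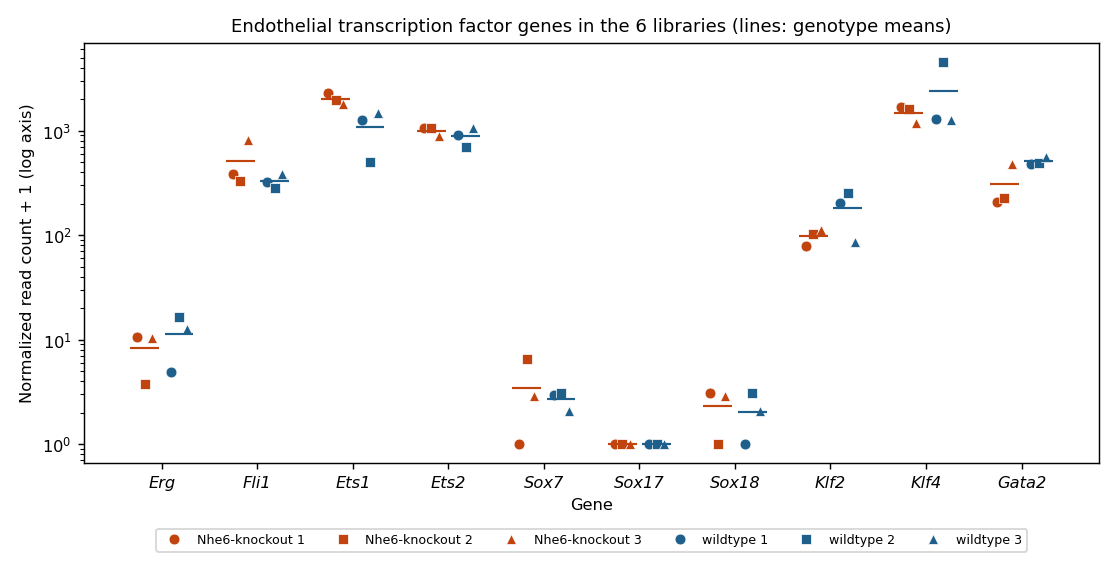
Normalized read counts plus 1 on a log axis for the 10 genes, with 1 point per library (orange for *Nhe6*-knockout, blue for wildtype; circle, square and triangle for replicates 1, 2 and 3) and lines at the mean of each genotype. *Ets1* is the only gene with all *Nhe6*-knockout points above all wildtype points, *Klf4* has 1 high wildtype point at 4549.8, and *Sox17* lies at 0 counts throughout.

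Within their families the endothelial factors were not the most abundant members. The 26 ETS genes were led by *Gabpa*, a broadly expressed member with a mean level of 24.7, and *Ets1*, *Ets2*, *Fli1* and *Erg* ranked 10, 11, 12 and 18. Among 19 Sox genes *Sox9*, a chondrocyte and progenitor factor, led at 17.6, and *Sox18* and *Sox7* ranked 13 and 14. *Klf4* ranked 3 and *Klf2* ranked 10 of 17 Klf genes, after *Klf9* (108.1) and *Klf6* (73.2). *Gata2* ranked 2 of 6 Gata genes, after *Gata6* (5.59), a factor of smooth muscle and mesodermal cells.

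**Figure D2:**
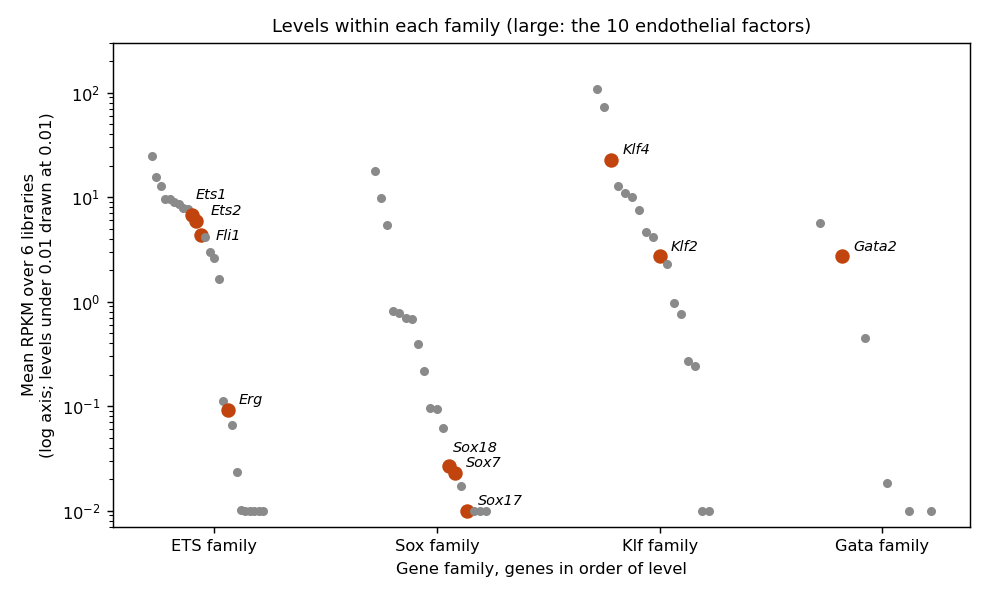
Mean RPKM over the 6 libraries (log axis, levels under 0.01 drawn at 0.01) for all genes of the 4 families in order of level, with the 10 endothelial factors as large orange points. *Klf4* and *Gata2* lie near the top of their families, and *Sox7*, *Sox17* and *Sox18* lie near the bottom of theirs.

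*Erg* (chromosome 16, 95359169 to 95586593, minus strand, GRCm38), whose product is an ETS factor of endothelium and cartilage, had 9, 3 and 10 reads in the *Nhe6*-knockout libraries and 4, 15 and 11 reads in the wildtype ones. The genotypes overlapped, and the gene did not pass the filter. With every gene of at least 1 count kept, its log2 fold change was -0.52 with a standard error of 0.77 (edgeR, unadjusted p = 0.520). No difference was detectable at this depth.

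*Fli1* (chromosome 9, 32422204 to 32542861, minus strand), the closest relative of *Erg*, had normalized counts of 387, 327 and 814 in the *Nhe6*-knockout libraries and 319, 278 and 382 in the wildtype ones. The genotypes overlapped, and *Nhe6*-knockout replicate 3 held 2.28 times the mean of the other *Nhe6*-knockout libraries. Means were 509 ± 265 for *Nhe6*-knockout and 326 ± 52.1 for wildtype (SD, n = 3 each), and the log2 fold change was 0.64 with a 95% interval of -0.25 to 1.54 (standard error 0.37, edgeR adjusted p = 0.562). Without *Nhe6*-knockout replicate 3 the log2 fold change was 0.12 (standard error 0.22).

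*Ets1* (chromosome 9, 32636221 to 32757820, plus strand), an ETS factor of angiogenic endothelium that is also active in fibroblasts and lymphocytes, had normalized counts of 2304, 1949 and 1807 in *Nhe6*-knockout replicates 1 to 3. The wildtype replicates 1 to 3 had 1263, 499 and 1489. Each *Nhe6*-knockout library lay above each wildtype library, and wildtype replicate 2 had 0.363 times the mean of the other wildtype libraries. Means were 2020.0 ± 256 for *Nhe6*-knockout and 1084 ± 519 for wildtype (SD, n = 3 each), with a log2 fold change of 0.90 and a 95% interval of -0.03 to 1.83 (standard error 0.39). The difference did not pass the test, with an unadjusted p of 0.0564 and an adjusted p of 0.437 in edgeR. The exact permutation test over libraries (two-sided) gave 0.1, which is the smallest p that 3 against 3 allows. Without wildtype replicate 2 the log2 fold change was 0.55 (standard error 0.16, unadjusted p = 0.0123, adjusted p = 0.132).

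*Ets2* (chromosome 16, 95702075 to 95721051, plus strand), a broadly expressed target of MAP kinase signalling, had normalized counts of 1062, 1047 and 881 in the *Nhe6*-knockout libraries and 915, 698 and 1050.2 in the wildtype ones. The genotypes overlapped, and wildtype replicate 2 was lowest, as for *Ets1* and *Fli1*. The log2 fold change was 0.17 with a 95% interval of -0.28 to 0.61 (standard error 0.18, edgeR adjusted p = 0.787). Of the 6 tested genes, *Ets2* varied least over the libraries.

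The 4 ETS genes lie in 2 neighbouring pairs. *Fli1* and *Ets1* are 93.4 kb apart on chromosome 9, and *Erg* and *Ets2* are 115.5 kb apart on chromosome 16, with 0 protein-coding genes between the partners of either pair. The levels of the partners differed from library to library. The ratio of *Ets1* to *Fli1*, both per kb of exon, was 2.45, 2.45 and 0.913 in the *Nhe6*-knockout libraries and 1.63, 0.737 and 1.60 in the wildtype ones, and *Ets2* had 677 to 1127 reads in libraries where *Erg* had at most 15.

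The SoxF genes were at or near 0. *Sox7* (chromosome 14, 63943673 to 63950732, plus strand) had 0, 6 and 2 reads in the *Nhe6*-knockout libraries and 2, 2 and 1 reads in the wildtype ones. *Sox18* (chromosome 2, 181669836 to 181671640, minus strand), a factor of lymphatic development, had 2, 0 and 2 reads against 0, 2 and 1 reads. *Sox17* (chromosome 1, 4490931 to 4497354, minus strand), an arterial factor, had no read in any library, and a count of 0 allows up to 3 reads per library. No fold change is given for these 3 genes, since the genotypes had too few reads to be compared.

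*Klf2* (chromosome 8, 72319033 to 72321656, plus strand), the flow-induced factor with the MEF2 match printed above, had normalized counts of 78.6, 102 and 112 in the *Nhe6*-knockout libraries and 202, 252 and 84.5 in the wildtype ones. Wildtype replicate 3 lay within the range of the *Nhe6*-knockout libraries, and the other wildtype libraries lay above it. Means were 97.5 ± 17.0 for *Nhe6*-knockout and 179.5 ± 85.9 for wildtype (SD, n = 3 each), with a log2 fold change of -0.88 and a 95% interval of -1.92 to 0.16 (standard error 0.43, edgeR adjusted p = 0.486). Without wildtype replicate 3 this became -1.22 (standard error 0.26, unadjusted p = 0.00519, adjusted p = 0.184), and without wildtype replicate 2 it was -0.56 (standard error 0.41).

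*Klf4* (chromosome 4, 55527143 to 55532466, minus strand), the paralogue that is also active in mural cells and epithelia, had normalized counts of 1678, 1593 and 1182 in the *Nhe6*-knockout libraries and 1296, 4549.8 and 1262 in the wildtype ones. Wildtype replicate 2 held 3.56 times the mean of the other wildtype libraries, which lay within the range of the *Nhe6*-knockout libraries. Means were 1484 ± 266 for *Nhe6*-knockout and 2369 ± 1888 for wildtype (SD, n = 3 each). On the log2 scale the difference was -0.67 with a 95% interval of -1.95 to 0.60 (standard error 0.53, edgeR adjusted p = 0.682), and without wildtype replicate 2 its direction turned, to 0.21 (standard error 0.18). The ratio of *Klf4* to *Klf2*, both per kb of exon, was 12.9, 9.44 and 6.41 in the *Nhe6*-knockout libraries and 3.88, 11.0 and 9.05 in the wildtype ones, so that *Klf4* was the more abundant paralogue in every library and the genotypes overlapped.

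*Gata2* (chromosome 6, 88193891 to 88207032, plus strand) had normalized counts of 206, 227 and 482 in the *Nhe6*-knockout libraries and 477, 488 and 560.4 in the wildtype ones. *Nhe6*-knockout replicate 3 lay among the wildtype libraries, at 2.23 times the mean of the other *Nhe6*-knockout libraries. Means were 305 ± 154 for *Nhe6*-knockout and 508 ± 45.3 for wildtype (SD, n = 3 each), with a log2 fold change of -0.74 and a 95% interval of -1.58 to 0.10 (standard error 0.35, edgeR adjusted p = 0.472). Without *Nhe6*-knockout replicate 3 it was -1.24 (standard error 0.19, unadjusted p = 0.00102, adjusted p = 0.126), a fit that keeps the closely similar *Nhe6*-knockout replicates 1 and 2. With these 2 libraries summed to 1 it was -0.54 (standard error 0.37, adjusted p = 0.962).

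Of the 6 tested genes, 0 passed the adjusted threshold of 0.05 with edgeR, against 9 of all 13479 genes (0.0668%). An unadjusted p under 0.05 was reached by 0 of the 6, against 11.8% of all genes, and 1 of the 6 (*Ets1*) had no overlap between the genotypes, against 19.9% of all genes. With DESeq2, 0 of the 6 passed the threshold, against 4.65% of all genes, and 1 (*Ets1*) had an unadjusted p under 0.05. With limma-voom, 0 of the 6 passed, against 0.0742% of all genes, and *Ets1* and *Gata2* had an unadjusted p under 0.05. Without wildtype replicate 2, 0 of 7 (*Erg* included) passed, against 2.88% of all genes, and *Ets1* had an unadjusted p under 0.05. The median log2 fold change was -0.25 over the 6 genes and -0.02 over all genes, with 3 of the 6 above 0 (*Fli1*, *Ets1* and *Ets2*) and 3 below 0 (*Klf2*, *Klf4* and *Gata2*, of which *Klf4* turned without wildtype replicate 2).

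**Figure D3:**
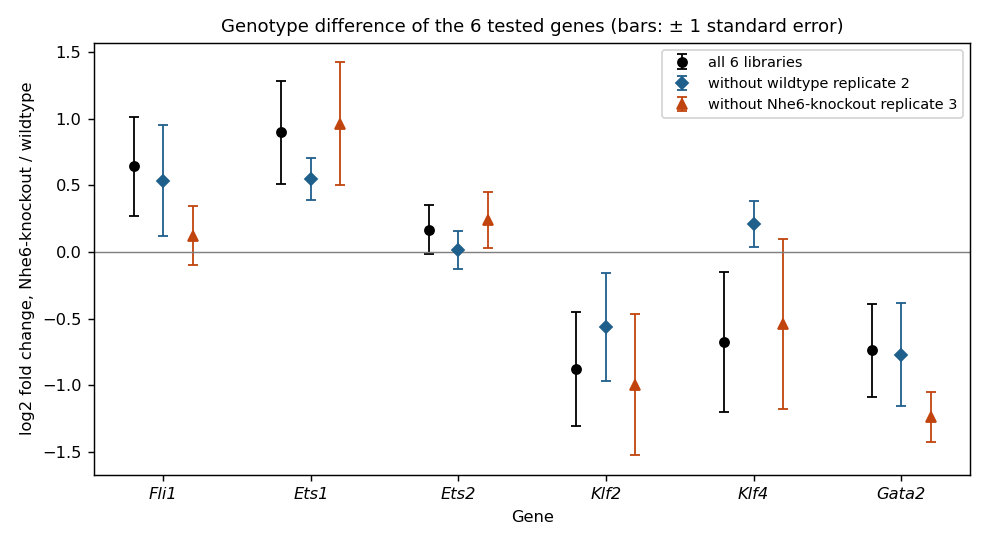
The log2 fold change (*Nhe6*-knockout over wildtype) of the 6 tested genes from edgeR, with bars of 1 standard error, for all 6 libraries (black), without wildtype replicate 2 (blue) and without *Nhe6*-knockout replicate 3 (orange). *Klf4* moves from -0.67 to 0.21 without wildtype replicate 2, and *Fli1* moves from 0.64 to 0.12 and *Gata2* from -0.74 to -1.24 without *Nhe6*-knockout replicate 3.

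Several of the widest departures belonged to single libraries. In log2 units from the mean of each gene, wildtype replicate 2 was at 1.43 for *Klf4*, 0.99 for *Klf2* and -1.49 for *Ets1*. *Nhe6*-knockout replicate 3 was at 1.06 for *Fli1* and 0.35 for *Gata2*, whereas *Nhe6*-knockout replicates 1 and 2 were at -0.87 and -0.73 for *Gata2*. In wildtype replicate 2, where *Klf4* was highest, the fibroblast, mural and lymphatic marker sums were also highest. The endothelial, macrophage and melanocyte sums were lowest there. Genes within the endothelial, fibroblast and mural lists went both ways, as given above. The part of these cell types in the level of *Klf4* was not tested.

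**Figure D4:**
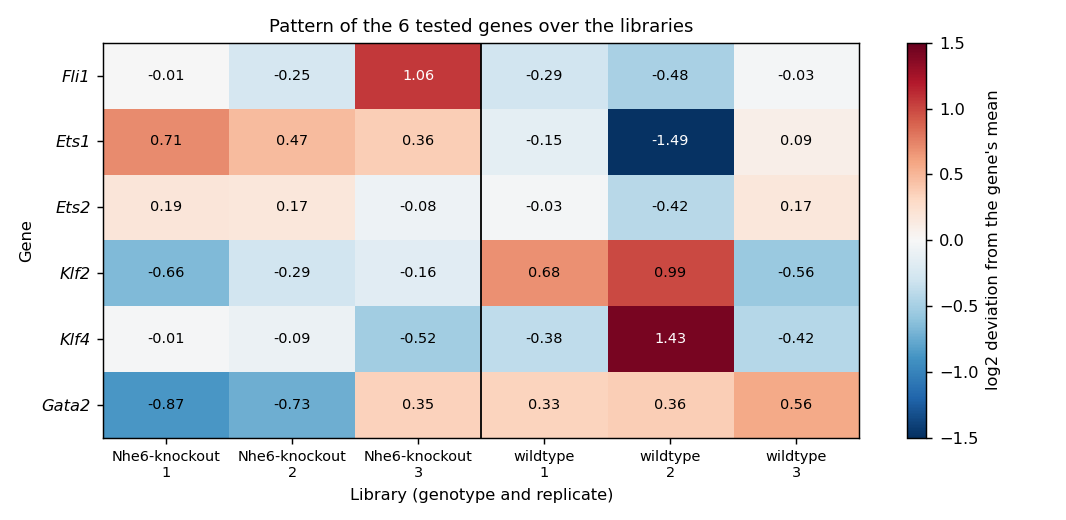
Deviation of each library from the mean of the gene, in log2 of the normalized counts, for the 6 tested genes (rows) in the 6 libraries (columns, *Nhe6*-knockout left of the line and wildtype right). The most extreme cells are both in wildtype replicate 2, -1.49 for *Ets1* and 1.43 for *Klf4*.

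The genes whose pattern was most like that of the 3 most abundant factors were found as those with the smallest root-mean-square difference of centred log2 counts over the 6 libraries. For *Klf4* these were *Dnm1* (0.118), *Ptk2b* (0.156) and *Psme2b* (0.158), against a median of 0.718 over all genes tested, and each of them was likewise highest in wildtype replicate 2. *Ets1* was closest to *Glipr2* (0.114), *Apbb1ip* (0.114) and *Arhgap19* (0.125), against a median of 0.776, and all 3 were lowest in wildtype replicate 2. *Ets2* was closest to *Etfa* (0.0456), *Dtymk* (0.0510) and *Nipal2* (0.0512), against a median of 0.365.

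The relatives of these factors were also not called. Of the other 22 ETS genes, 13 were tested, 0 passed the threshold and the median log2 fold change was 0.15, with 10 above 0. The smallest unadjusted p belonged to *Etv4*, a target of FGF signalling (log2 fold change 1.86, adjusted p = 0.358), followed by *Elf1* (-0.50, adjusted p = 0.392), the repressor *Erf* (0.46, adjusted p = 0.412) and *Etv1* (0.79, adjusted p = 0.436). *Fev*, *Etv2*, *Elf5*, *Spib*, *Spic* and *Spdef* had at most 3 reads in every library, *Etv2* being the ETS factor that starts the endothelial lineage in the embryo. Of the other 16 Sox genes, 9 were tested and 0 passed, with a median of 0.02, and *Sox12* (0.58), *Sox13* (-0.76), *Sox11* (1.28) and *Sox5* (0.53) had the smallest p. *Sox1*, *Sox3* and *Sox14* had at most 3 reads throughout. Of the other 15 Klf genes, 13 were tested and 0 passed, with a median of -0.04. *Klf6*, which is induced on vascular injury, had a log2 fold change of -0.62 without overlap between the genotypes (adjusted p = 0.224 in edgeR and 0.0235 in DESeq2), and *Klf5* (-0.46), *Klf1* (0.60) and *Klf3* (0.20) came next. No overlap was seen for 19.9% of all genes, and 4.65% passed in DESeq2. *Klf14* and *Klf17* had at most 3 reads throughout. *Gata6* (0.20) and *Gata3* (-0.02) were the 2 tested of the other 5 Gata genes, *Gata1* and *Gata5* had at most 3 reads, and 0 passed.

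Of 20 further endothelial transcription factors, 14 were tested and 0 passed in edgeR's test, with a median log2 fold change of -0.21. *Tbx20*, a cardiac and endocardial T-box factor, had 124, 95.7 and 250 normalized counts in the *Nhe6*-knockout libraries and 7.82, 3.09 and 20.3 in the wildtype ones. The genotypes did not overlap, with a log2 difference of 3.90 (standard error 0.75, adjusted p = 0.114). *Epas1* (HIF-2 alpha, an oxygen-regulated factor) had a log2 fold change of 1.06 (adjusted p = 0.192). That of *Meox2* was 4.16, from at most 35 reads in a library (adjusted p = 0.195). *Foxc2*, a factor of lymphatic valves, was at -1.23 (adjusted p = 0.260). These 4 of the 14 genes passed the threshold in DESeq2, against 4.65% of all genes. Without wildtype replicate 2, *Lef1*, a mediator of Wnt signals, was the one of 14 that passed in edgeR (-1.48, adjusted p = 0.0414). Of all genes, 2.88% passed in that fit. *Tal1* and *Tcf15* had at most 3 reads in every library.

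The ERK5 and CCM genes that control *Klf2* and *Klf4* were all measured. Of 11 genes tested, 0 passed, 0 had an unadjusted p under 0.05 and the median log2 fold change was 0.02. *Ccm2* (0.37), the CCM receptor *Heg1* (0.61), *Mapk7*, which encodes ERK5 (0.34), and *Mef2a* (-0.19) had the smallest p, with adjusted p of 0.599 to 0.736. *Mef2c*, of the factor family whose motif is marked in the *Klf2* promoter, had 828, 979 and 1066 reads in the *Nhe6*-knockout libraries and 329, 2649 and 528 reads in the wildtype ones. It was named after its values were seen, because it was highest in wildtype replicate 2, as were *Klf2* and *Klf4*. *Mef2a*, *Mef2d* and *Map3k3* were also highest there, whereas *Mapk7* and *Heg1* were highest in *Nhe6*-knockout replicate 3. A link between *Mef2c* and *Klf2* or *Klf4* was not tested.

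Known targets of the factors gave 1 call in edgeR's test, where 9 of all 13479 genes (0.0668%) passed. Of 28 target genes, 19 were tested and *Cdh5*, which encodes VE-cadherin and is driven by ERG and FLI1, was lower in *Nhe6*-knockout cells. Its normalized counts were 219.8, 232 and 179 in the *Nhe6*-knockout libraries and 2508, 5198 and 3468 in the wildtype ones, which gave a difference of -4.15 on the log2 scale (SE 0.31, adjusted p = 0.0133 with edgeR). *Cdh5* also passed with DESeq2 (adjusted p = 1.41e-34) and, without wildtype replicate 2, with edgeR (-3.83, adjusted p = 0.00548). It did not pass without *Nhe6*-knockout replicate 1, 2 or 3, or without wildtype replicate 3. The call was also lost with *Nhe6*-knockout replicates 1 and 2 summed and with a replicate block. In each of these settings 0 of the target genes and 0 to 2 of all genes passed. With all libraries kept, *Fli1* and *Ets1* had log2 fold changes of 0.64 and 0.90 (edgeR adjusted p = 0.562 and 0.437). *Erg* had at most 15 reads in a library. A link between these factors and the level of *Cdh5* was not tested. Among the 16 ETS targets, 10 were tested, and after *Cdh5* the smallest p belonged to *Flt1* (-1.79, adjusted p = 0.242), *Angpt2* (-1.54, adjusted p = 0.327) and *Esam* (-3.54, adjusted p = 0.386). Without wildtype replicate 2 these 3 were at -1.04, -0.75 and -1.21. *Tek*, an angiopoietin receptor, passed at 1.68 in that fit (edgeR adjusted p = 0.0342), as did 2.88% of all genes. *Esam* had 230 reads in wildtype replicate 2 and 3 to 29 in the other libraries, and its genotypes overlapped. *Flt1* passed in DESeq2 (adjusted p = 0.0104), where 4.65% of all genes passed. *Cldn5*, *Tie1* and *Robo4* had at most 3 reads in every library.

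Of the 8 listed targets of *Klf2* and *Klf4*, 6 were tested and 0 passed. *Adamts4*, an aggrecanase, was at 1.04 on the log2 scale (standard error 0.15, edgeR adjusted p = 0.0841). Without wildtype replicate 2 it passed at 1.01 (edgeR adjusted p = 0.0379), against 2.88% of all genes. *Thbd*, the thrombin receptor thrombomodulin, had 952, 953 and 345 normalized counts in the *Nhe6*-knockout libraries and 6379, 21096 and 1654 in the wildtype ones. It was lower in each *Nhe6*-knockout library, and as for *Klf4* and *Klf2* its highest count was in wildtype replicate 2 (log2 fold change -3.69, adjusted p = 0.210). Without that library it was at -2.42. *Thbd* and *Adamts4* passed in DESeq2, with adjusted p of 0.000141 and 6.61e-07, against 4.65% of all genes. *Ptgds* (-4.16, adjusted p = 0.472) and *Adamts5* (-0.63, adjusted p = 0.556) had overlapping counts. *Nos3*, the endothelial nitric oxide synthase that KLF2 induces, had at most 10 reads in a library and was not tested.

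Of the 5 SoxF targets, 3 were tested and 0 passed, with log2 fold changes of 0.65 for *Notch1*, -0.09 for *Vcam1* and 0.02 for *Efnb2*. Without wildtype replicate 2 *Notch1* passed (1.28, edgeR adjusted p = 0.0227), against 2.88% of all genes. In that fit *Vcam1* was at -0.56 and *Efnb2* turned to -0.06. Of the 6 *Gata2* targets, 3 were tested and 0 passed, with -1.17 for *Cd34*, 0.68 for *Emcn* and -0.42 for *Kdr*. Without wildtype replicate 2 *Cd34* was at -0.20 and *Emcn* at 0.11. *Kdr* turned to 2.2 there, from at most 21 reads in a library (adjusted p = 0.183 in edgeR). Some genes stand on more than 1 target list, among them *Vcam1*, *Emcn* and *Kdr*.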

How the data were processed

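Poly(A)-enriched, stranded libraries of 6 cultures (3 per genotype) were sequenced with 75-cycle kits. The authors deposited raw counts of reads per gene symbol without normalization. The submitters' processing notes name mm10, bcl2fastq 2.20.0.422, STAR 2.7.7a, HTSeq 0.13.5 and DESeq2 1.26.0, with no settings, and the strand setting of the counting is not given in the sources used here. *Fli1* and *Ets1* overlap antisense genes without shared exon bases, and *Sox17* shares 804 exon bases with 1 gene on the other strand. The last 5 lines (reads outside genes or at several places, 22.2% of reads) were left out.

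Genes were filtered with filterByExpr (minimum count 10), normalized by TMM (factors 0.976 to 1.03) and compared with the two-sided quasi-likelihood test of edgeR 4.0.16 (R 4.3.3), with genotype as the only term and Benjamini-Hochberg adjustment over all 13479 genes. The threshold was an adjusted p under 0.05. Standard errors are the log2 fold change divided by the square root of F. RPKM values were computed from the deposited counts. Positions and exon lengths are from GENCODE on GRCm38, and promoter sequences from RefSeq on GRCm38.p6. Alternatives were DESeq2 size factors, upper-quartile factors, a filter of 1 count only, a minimum of 10 counts in each library, DESeq2 1.42.0, limma-voom (limma 3.58.1), a replicate block, each library left out, and *Nhe6*-knockout replicates 1 and 2 summed. The tests were tried on simulated data.

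The genes and lists were chosen with earlier results of these data known. Named were each of the 10 factors, up to 4 genes per list with the smallest p, genes past the threshold, genes with at most 3 counts in every library, and 3 genes most like each of the 3 most abundant factors. The check of the labels on the targeted gene is not reported here. Of the 7 marker lists, summed levels are given in place of the genes with the smallest p. The leading genes of each family, *Lef1*, *Tek*, *Mef2c*, *Nos3* and the single markers were named after their values were seen.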

Additional observations from a re-analysis of the deposited data

How the results depend on the processing

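None of the factors tested passed the threshold under the 14 alternatives (6 to 9 of the 10, *Sox7* and *Sox18* in 1 setting and *Sox17* in none), and the direction of *Fli1*, *Ets1*, *Ets2*, *Klf2* and *Gata2* was kept in each. *Klf4* turned to 0.21 without wildtype replicate 2. Over the 14 alternatives the log2 fold change was 0.55 to 1.19 for *Ets1*, 0.12 to 0.88 for *Fli1*, 0.01 to 0.30 for *Ets2*, -1.22 to -0.56 for *Klf2*, -0.98 to 0.21 for *Klf4* and -1.24 to -0.52 for *Gata2*. Of all genes, 9 passed in edgeR's test, against 21 with no filter beyond 1 count, 21 with at least 10 counts in every library, 627 with DESeq2, 2 with the replicate block, 1 with *Nhe6*-knockout replicates 1 and 2 summed and 0 to 395 with 1 library left out, the 395 without wildtype replicate 2. Target genes past the threshold numbered 1, against 4 with DESeq2, 0 with the replicate block, 0 with replicates 1 and 2 summed and 0 to 4 with 1 library left out. Other endothelial factors numbered 0, against 4 with DESeq2 and 0 to 1 with 1 library left out, and relatives in the 4 families 0, against 1 with DESeq2 (*Klf6*). The cause of these shifts was not tested. Same-numbered libraries deviated from their genotype means with correlations of 0.21, -0.19 and 0.11, and *Nhe6*-knockout replicate 2 correlated best with wildtype replicate 1 (0.38), so the numbers were not taken to pair the libraries. In the replicate block, *Ets1* and *Gata2* had an unadjusted p under 0.05 (0.0396 and 0.0286) and 0 factors passed after adjustment. With 3 libraries per genotype the intervals of *Fli1*, *Ets1*, *Klf2*, *Klf4* and *Gata2* span more than 1 log2 unit, and at 0 to 15 reads the depth showed no difference for *Erg* and the SoxF genes.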
